A study of Mus musculus with 47 samples.

Results

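The 10 genes described here are core parts of the circadian clock and were chosen by symbol: Arntl, Clock, Per1, Per2, Per3, Cry1, Cry2, Nr1d1, Nr1d2 and Dbp. All 10 were found among the 14221 genes of a bulk RNA-seq count table of mouse hypothalamus, and all 10 passed the filter on low counts. In most mammalian cells ARNTL (BMAL1) and CLOCK form a pair of transcription factors that bind E-box motifs and switch on the Per and Cry genes, whose proteins return to the nucleus and block that same pair. A further loop runs through the nuclear receptors NR1D1 and NR1D2 (REV-ERB alpha and beta), which repress Arntl, and DBP carries the rhythm to output genes through D-box motifs. In the hypothalamus the suprachiasmatic nucleus holds the light-set pacemaker, while clocks in other hypothalamic regions also follow feeding.

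The mice were male ob/ob animals, which lack leptin (Lep ob/ob), become obese and diabetic, and are given an age of 11 weeks in the labels. A single intracerebroventricular (icv) dose of 3 µg FGF1, a fibroblast growth factor, or vehicle was given, and a punch of the hypothalamus was cut from a coronal brain block on Day 1, Day 5 or Day 42, with 1 mouse in each library. Vehicle mice were pair-fed to the intake of FGF1 mice. The question was how the hypothalamic response to FGF1 changes with time. On Day 1 there were 10 FGF1 mice and 4 vehicle mice labelled non-diabetic, and on Day 42 there were 5 of each. On Day 5 there were 9 FGF1 mice, 7 vehicle mice labelled non-diabetic and 7 vehicle mice labelled diabetic. All 47 mice therefore share the ob/ob genotype, the injection route and a 12 h light and 12 h dark cycle. The study's methods also say that ob/ob mice not counted as diabetic were left out. What the non-diabetic label of the vehicle mice stands for is therefore not clear. The study's methods place the taking of punches for its single-nucleus libraries in a window of several hours in the morning and say that the bulk samples were dissected in the same manner, but give no hour for a mouse or group. Transcripts of clock genes change over the day, so a difference in hour between groups cannot be told apart from a difference in treatment.

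Total counts per library ranged from 1243280 to 47082403, and the shallowest library was an FGF1 mouse of Day 1. In that library the lowest raw count of a clock gene was 40, and in the other libraries it was 135, so no clock gene was limited by detection. Each day was 1 preparation, with 3 preparation codes for 3 days, so day and preparation cannot be told apart. All 9 markers of hypothalamic neurons were in the table, and their summed level ranged from 366 to 1494 CPM (normalized counts scaled to a common library size) over all libraries. Markers of thalamus ranged from 150 to 1027 CPM in the FGF1 mice and from 246 to 1195 CPM in the vehicle mice of Day 42. In bulk tissue, fewer cells of a type and less RNA per cell cannot be told apart.

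Promoter sequences are shown for the 4 clock genes whose levels differed most between FGF1 and vehicle mice, because the motifs through which the loop acts can be read in them. They run from 250 bases before to 50 bases after the transcription start, on the strand of the gene, and were taken from RefSeq annotation of GRCm38.p6, which held entries for 9 of the 10 genes, all but Per2. The letters searched on both strands were CACGTG (E-box), CACGTT (E-prime box), TTATGTAA or TTACGTAA (D-box), ANTAGGTCA or ANTGGGTCA (RORE, an element read by REV-ERB receptors), TGACGTCA (CRE, the cyclic AMP response element) and ACANNNTGT (GRE, the inner part of the glucocorticoid response element). Capitals mark each match, and no pair of matches overlapped.
Per3 (chr4:151044616-151044915, minus strand): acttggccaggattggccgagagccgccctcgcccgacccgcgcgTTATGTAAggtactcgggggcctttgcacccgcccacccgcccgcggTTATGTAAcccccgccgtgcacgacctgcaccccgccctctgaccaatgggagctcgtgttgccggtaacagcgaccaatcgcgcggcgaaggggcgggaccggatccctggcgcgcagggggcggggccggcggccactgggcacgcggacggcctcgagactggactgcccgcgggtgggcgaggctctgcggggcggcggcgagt
Cry1 (chr10:85185005-85185304, minus strand): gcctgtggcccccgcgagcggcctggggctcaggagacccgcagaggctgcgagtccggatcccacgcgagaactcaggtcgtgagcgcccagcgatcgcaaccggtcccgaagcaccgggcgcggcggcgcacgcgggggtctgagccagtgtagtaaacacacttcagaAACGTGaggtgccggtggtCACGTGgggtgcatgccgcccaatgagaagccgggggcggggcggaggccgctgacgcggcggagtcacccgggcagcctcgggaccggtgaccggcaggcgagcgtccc
Cry2 (chr2:92434020-92434319, minus strand): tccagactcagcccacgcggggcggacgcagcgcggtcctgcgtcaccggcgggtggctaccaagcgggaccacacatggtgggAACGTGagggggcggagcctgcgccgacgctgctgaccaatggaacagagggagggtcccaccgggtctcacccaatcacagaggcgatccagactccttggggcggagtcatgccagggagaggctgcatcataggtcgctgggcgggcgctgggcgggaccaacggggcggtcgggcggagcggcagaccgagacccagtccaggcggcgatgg
Per1 (chr11:69098699-69098998, plus strand): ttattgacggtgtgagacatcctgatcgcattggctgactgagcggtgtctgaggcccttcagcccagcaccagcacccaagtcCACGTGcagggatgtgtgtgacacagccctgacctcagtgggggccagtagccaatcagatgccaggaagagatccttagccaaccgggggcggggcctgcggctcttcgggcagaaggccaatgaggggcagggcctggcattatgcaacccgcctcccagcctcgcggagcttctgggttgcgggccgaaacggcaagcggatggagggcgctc

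Positions count the first transcribed base as 1 and the base before it as -1. Per3 held 2 D-boxes, which began at -205 and -158, and a D-box was present in 1.06% of 32851 promoters of the same length. Cry1 held an E-box at -60 and an E-prime box at -79. Cry2 held an E-prime box at -166, and Per1 an E-box at -166. A second entry of Per1, not printed, held none of the letters searched. E-boxes and E-prime boxes were present in 7.15% and 4.68% of all promoters. Of the genes not printed, Nr1d1 held an E-prime box at -28, and a second entry of Arntl held a RORE at base 29 of the transcript. The windows of Clock, Nr1d2 and Dbp held none of these letters, and none of the 9 genes searched held the CRE or GRE letters, found in 1.79% and 6.85% of all promoters. These are matches of letters in short windows, and binding was not measured.

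Levels between genes are compared per kb of annotated exon length, since longer transcripts give more reads. That length joins the exons of all annotated transcripts, 7523 bases for Arntl and 5631 for Per1. Their longest transcripts hold 3995 and 4671 bases, so the order of genes below depends on the length used. In the 7 non-diabetic vehicle mice of Day 5, Nr1d2 was the most abundant at 35.1 ± 1.37 CPM per kb (SD), above Clock at 15.7 ± 0.331 CPM per kb, with no overlap between the mice. Dbp at 13.9 ± 1.31 and Cry2 at 13 ± 0.510 CPM per kb followed. Clock overlapped Dbp, and Dbp overlapped Cry2. Cry1 at 9.06 ± 1.02 and Per3 at 8.79 ± 0.420 CPM per kb overlapped each other and lay below Cry2. Nr1d1, Per2 and Per1 overlapped each other between 6.19 and 6.63 CPM per kb. By this measure Arntl was the lowest at 4.18 ± 0.250 CPM per kb, without overlapping Per1. The order differed in other groups. In the vehicle mice of Day 1, Cry2 was first at 29.8 ± 1.93 CPM per kb, overlapping Nr1d2 at 29.0 ± 5.44. Clock was at 6.055 ± 0.992 there and at 11.1 ± 2.86 in the vehicle mice of Day 42. The positions of the genes on GRCm38 in the GENCODE M21 annotation are chr7:113207465-113314126 for Arntl, chr5:76209868-76304792 for Clock, chr1:91415982-91459324 for Per2, chr11:98767932-98775333 for Nr1d1, chr14:18204054-18239127 for Nr1d2 and chr7:45705088-45710203 for Dbp. The remaining genes span chr11:69095217-69109960 (Per1), chr4:151003652-151044665 (Per3), chr10:85131700-85185064 (Cry1) and chr2:92403646-92434043 (Cry2). Counts are given per gene, so isoforms are not separated.

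**Figure D1:**
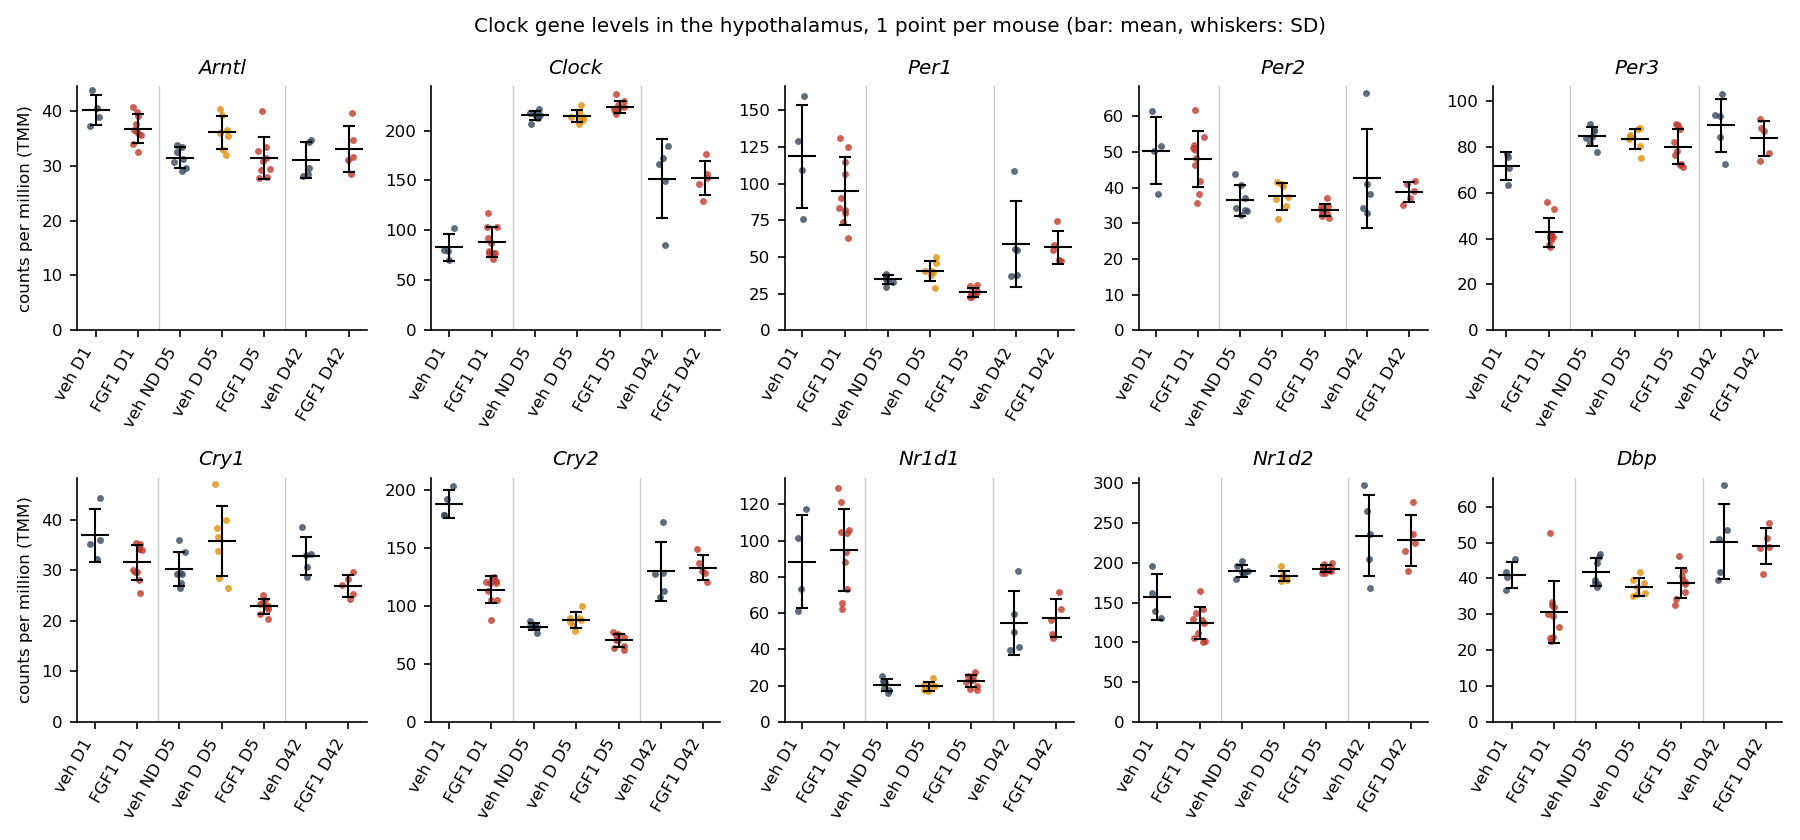
Levels of the 10 clock genes in CPM (vertical axes, from 0) in each of 47 mice, by treatment and day (horizontal axes; veh, vehicle; ND, labelled non-diabetic; D, labelled diabetic). Points are mice, horizontal bars are group means and whiskers are SD; on Day 1 all 10 FGF1 mice lie below all 4 vehicle mice for Per3 and Cry2, and on Day 5 all 9 FGF1 mice lie below both vehicle groups for Cry1.

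One day after FGF1, Per3 and Cry2, repressor genes of the loop, were lower in every FGF1 mouse than in any vehicle mouse. Dbp, Nr1d2 and Cry1 were lower by a smaller amount, while Clock, Arntl, Per1, Per2 and Nr1d1 did not pass the test. In total 5 of 10 clock genes fell and none rose, beside 45% of all 14221 genes called in either direction and 21.6% called lower in the same comparison. With a further requirement of a log2 fold change beyond 0.5, the study's threshold, 2 of 10 clock genes were called beside 19.5% of all genes. Calls were made at an adjusted p under 0.05 (edgeR quasi-likelihood test, Benjamini-Hochberg over all genes), and the share of clock genes called was near that background.

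Per3 encodes a PERIOD protein that is dispensable for the loop itself and tunes its period. It stood at 70.8, 75.6, 76.9 and 63.4 CPM in the 4 vehicle mice of Day 1. In the 10 FGF1 mice it ran from 36.5 through a median of 40.8 to 55.8 CPM. The groups did not overlap, which held for 14.4% of all genes, and 6.81% of all genes lay below in this way. Per3 fell by 41.3%, a log2 fold change of -0.77 ± 0.08 (SE; edgeR adjusted p = 9.64e-11). The exact permutation test gave p = 0.001998 (two-sided), the smallest that 10 against 4 mice can give.

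Cry2 encodes a cryptochrome, the protein class that binds ARNTL and CLOCK on DNA. Its level was 192, 178, 179 and 204 CPM in the vehicle mice and ran from 87.9 through 119 to 125 CPM in the FGF1 mice. Again no FGF1 mouse reached the lowest vehicle mouse. Cry2 fell by 39.2% (log2 fold change -0.72 ± 0.08, edgeR adjusted p = 2.93e-10), with an exact permutation p of 0.001998. The same annotation places an antisense transcript, D930015M05Rik, over 4.67% of Cry2 exon length, and that transcript was not in the count table.

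Dbp, the output factor, was at 41.7, 36.7, 40.3 and 45.4 CPM in the vehicle mice of Day 1. In the FGF1 mice it ran from 22.5 through 29.8 to 52.7 CPM. All but 1 of the FGF1 mice lay below every vehicle mouse, and the remaining mouse lay above every one of them. Dbp fell by 25.6% (log2 fold change -0.43 ± 0.13, edgeR adjusted p = 0.00591), and the exact permutation p was 0.0420. Sphk2, a sphingosine kinase gene on the opposite strand, shares 539 bases with Dbp exons, 18% of their length, and rose on Day 1 (log2 fold change 0.80 ± 0.18, edgeR adjusted p = 0.000281). The library kit keeps strand, but the strand setting of the counting is not given in the sources used here, so whether reads over those bases were kept apart is not known.

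Nr1d2 was at 139, 196, 162 and 130 CPM in the vehicle mice and between 101 and 165 CPM, with a median of 126 CPM, in the FGF1 mice. The groups overlapped, with 7 of 10 FGF1 mice below all vehicle mice. It fell by 20.8% (log2 fold change -0.34 ± 0.10, edgeR adjusted p = 0.00654). Without the second vehicle mouse the difference was -0.21 on the log2 scale and the edgeR adjusted p was 0.122, so the call rested on that mouse.

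Cry1, the other cryptochrome gene, stood at 32.2, 36.1, 44.4 and 35.3 CPM in the vehicle mice and at 25.5 to 35.4 CPM, with a median of 32.1 CPM, in the FGF1 mice. Of the FGF1 mice, 5 of 10 lay below all vehicle mice. It fell by 15.0% (log2 fold change -0.23 ± 0.10, edgeR adjusted p = 0.0474), close to the threshold. Leaving out a mouse ended this call for 8 of the 14 mice, and without the third vehicle mouse the log2 fold change was -0.13.

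The activators were not called: Clock had a log2 fold change of 0.09 ± 0.11 and Arntl of -0.13 ± 0.08 on Day 1 (edgeR adjusted p = 0.558 and 0.157). Arntl was at 37.3, 43.7, 38.9 and 40.5 CPM in the vehicle mice and at 32.6 to 40.7 CPM in the FGF1 mice. Arntl was called on Day 1 by DESeq2 (log2 fold change -0.19), with the size factors of DESeq2 in the edgeR fit (-0.18) and with a filter of at least 10 counts in every library (-0.19), and each of these called 6 of 10 clock genes. With limma-voom quality weights 4 of 10 were called, as Cry1 was lost (adjusted p = 0.217). Nr1d1 varied widely, from 61.1 to 117 CPM in vehicle mice and from 62.2 to 129 CPM in FGF1 mice, with a log2 fold change of 0.10 ± 0.17. Thra, a thyroid hormone receptor gene on the opposite strand, shares 263 bases with Nr1d1 exons, 8.55% of their length, and is more abundant (mean log2 CPM of 8.75 against 5.65), with the same limit on strand as for Dbp. Per1 ran from 76.1 to 160 CPM in vehicle mice and from 63.2 to 131 CPM in FGF1 mice, and Per2 from 38.2 to 61.4 and from 35.7 to 61.7 CPM. Their log2 fold changes were -0.31 ± 0.18 and -0.07 ± 0.12 (edgeR adjusted p = 0.157 and 0.673). Without the third vehicle mouse Per1 was called, at a log2 fold change of -0.48 (edgeR adjusted p = 0.0393).

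Using only the 14 libraries of Day 1, 2 of 10 clock genes were called, Per3 and Cry2, beside 33.4% of all genes, and the adjusted p-values of Dbp, Nr1d2 and Cry1 were 0.0638, 0.0508 and 0.0880 at nearly the same fold changes. Some lists of cell markers also differed between FGF1 and vehicle mice of Day 1. The summed level of 9 of 9 hypothalamic neuron markers was 757 to 1151 CPM in FGF1 and 1142 to 1494 CPM in vehicle mice. That of 3 of 3 neuron markers was 1636 to 2269 CPM in FGF1 and 2539 to 3263 CPM in vehicle mice, that of 4 of 4 astrocyte markers 2042 to 2574 and 2856 to 3561 CPM, and that of 3 of 3 oligodendrocyte markers 1534 to 2887 and 2537 to 3857 CPM. For 3 of 3 microglial markers it was 120 to 176 CPM in FGF1 and 85.2 to 112 CPM in vehicle mice, and for 3 of 3 meningeal markers 35.9 to 294 and 44.1 to 85.0 CPM. For 3 of 3 thalamus markers it was 82.2 to 155 and 99.6 to 132 CPM. The ranges overlapped for the hypothalamic neuron, oligodendrocyte, meningeal and thalamus lists. None of these lists was at 0 in any mouse, and their part in the lower levels of Per3, Cry2 and the other clock genes was not tested.

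**Figure D2:**
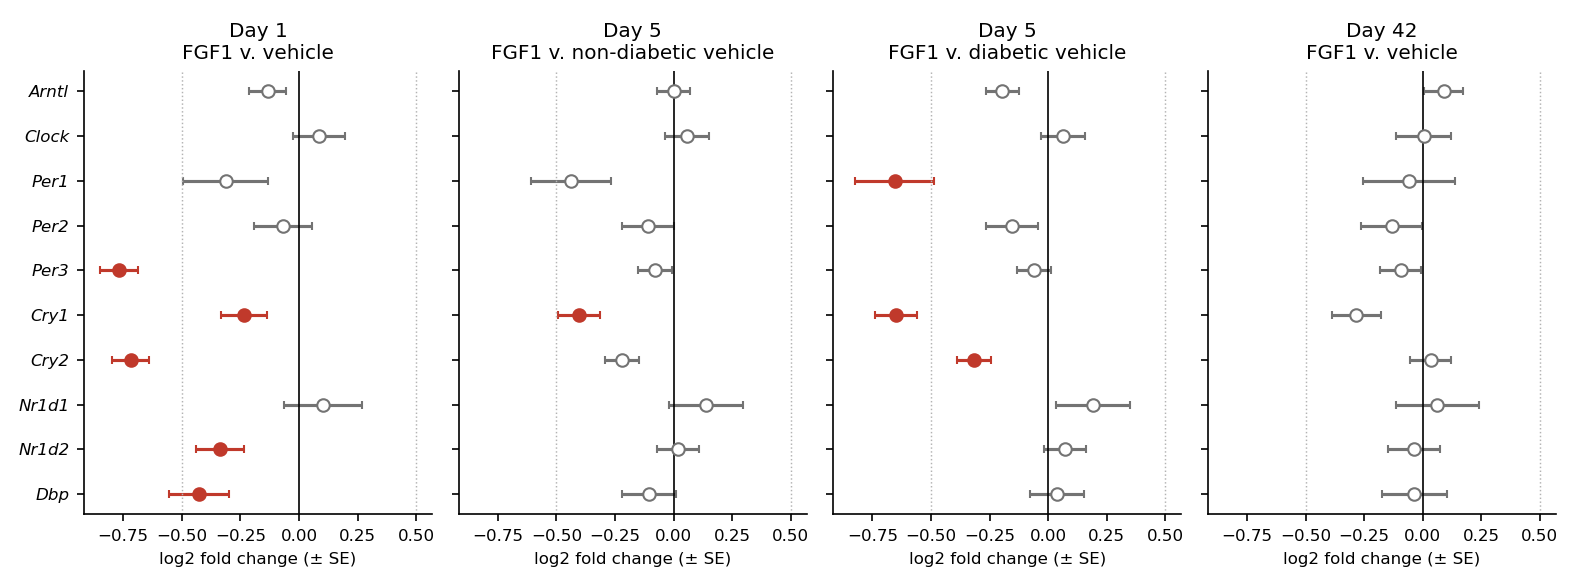
Log2 fold change of FGF1 against vehicle (horizontal axis, ± SE) for the 10 clock genes (vertical axis) in the 4 comparisons. Filled red points passed an adjusted p under 0.05 and dotted lines mark 0.5 in each direction; the calls are 5 on Day 1, 1 and 3 on Day 5 and none on Day 42, and all lie below 0.

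Genes that surround the loop were also read on Day 1, from lists chosen by role. Of 12 further loop and regulator genes, 4 fell and 3 rose, and their median log2 fold change was -0.10 beside 0.01 for all genes. Ciart, a repressor of ARNTL and CLOCK, fell by 1.47 on the log2 scale (SE 0.14). Bhlhe40, an E-box repressor induced by many stimuli, was higher by 0.94 ± 0.11, and Timeless by 0.66 ± 0.13 (log2 fold changes, edgeR adjusted p from 1.44e-11 to 6.85e-05 for these 3 genes).

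Among 9 output genes in the table, Tef and Hlf fell and 4 rose. TEF and HLF are the PAR bZIP factors that share the D-box with DBP, so all 3 genes of that family fell on Day 1, with log2 fold changes of -0.52 ± 0.05 for Tef, -0.82 ± 0.15 for Hlf and -0.43 ± 0.13 for Dbp. Tspan4, a tetraspanin gene, rose by a log2 fold change of 1.57 ± 0.16 and Coq10b by 0.36 ± 0.12. Usp2, a ubiquitin protease gene with a strong daily rhythm, fell by 0.96 on the log2 scale (SE 0.13) among 19 modifier genes, of which 3 fell and 5 rose. Csnk1d, the kinase that marks PERIOD proteins for decay, was higher by 0.36 ± 0.06.

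Of 13 genes of the suprachiasmatic nucleus in the table, Syt10 (log2 fold change -0.95 ± 0.17) and Vipr2, the VIP receptor gene of that nucleus (-0.69 ± 0.20), fell and Nmur2 rose (0.80 ± 0.20). Genes that feed into the clock were read from 3 further lists. Of 10 immediate early genes, 6 rose, among them Junb (log2 fold change 2.50 ± 0.43) and Egr1 (2.37 ± 0.33), while Per1, which CREB also induces, was not called. Of 13 glucocorticoid targets, 4 fell and 5 rose; Tsc22d3 had a log2 fold change of -1.36 ± 0.12 and Sult1a1 of -1.51 ± 0.17, against 1.47 ± 0.26 and 1.81 ± 0.30 for the metallothioneins Mt1 and Mt2. Cirbp, a cold-inducible RNA-binding protein gene, was lower by 0.72 ± 0.13 among 8 temperature-responsive genes, and 3 heat shock genes of that list rose. All of these passed an adjusted p under 0.05 in the edgeR fit, beside the 45% of all genes that did.

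**Figure D3:**
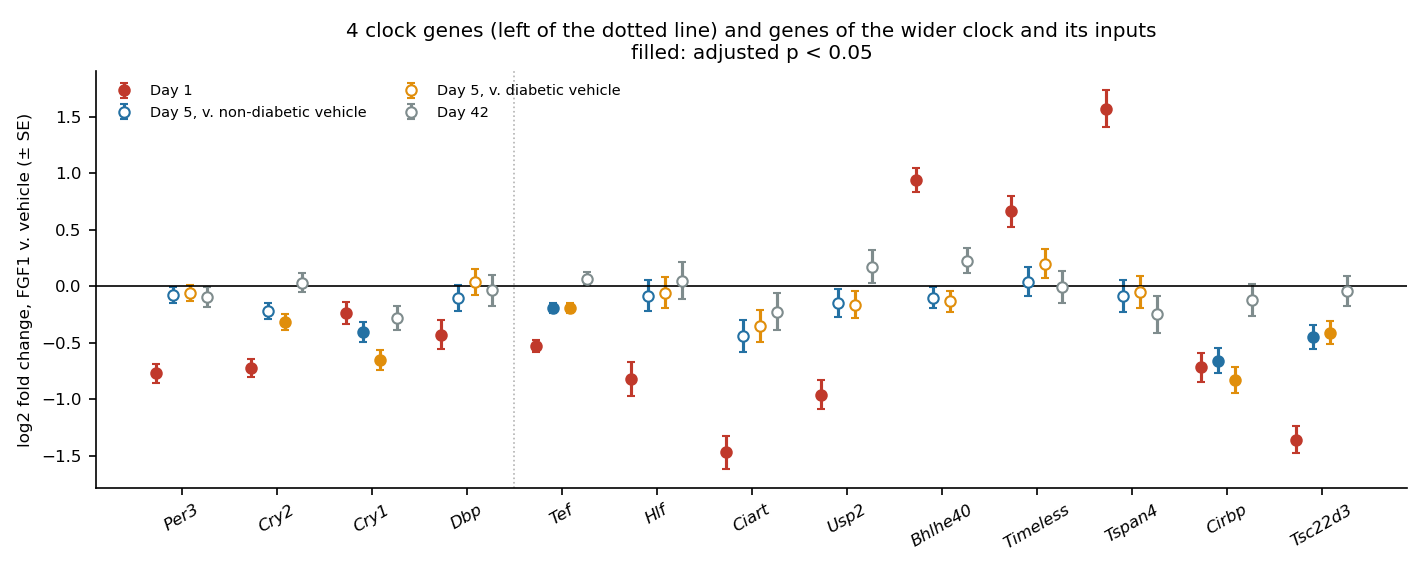
Log2 fold change of FGF1 against vehicle (vertical axis, ± SE) for 4 clock genes, left of the dotted line, and 9 genes of the wider clock and its inputs (horizontal axis), in the 4 comparisons shown by color. Filled points passed an adjusted p under 0.05. Tef, Hlf, Ciart, Usp2, Cirbp and Tsc22d3 lie below 0 on Days 1 and 5. Of these, only Tef, Cirbp and Tsc22d3 are filled on Day 5, and no Day 42 point is filled.

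On Day 5 the clock genes called were the cryptochromes and Per1. Cry1 fell against both vehicle groups, and Per1 and Cry2 passed against the diabetic vehicle group and missed the threshold against the non-diabetic one. The 2 comparisons share the 9 FGF1 mice and are not independent. Against the non-diabetic vehicle mice 1 of 10 clock genes was called lower, beside 4.65% of all genes in either direction and 1.40% lower. Against the diabetic vehicle mice 3 of 10 were called lower, beside 9.21% and 3.42%. With the fold threshold of 0.5 added, 0 and 2 of 10 were called, beside 1.54% and 2.85% of all genes. All calls are from the edgeR fit at an adjusted p under 0.05.

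Cry1 ran from 20.4 through a median of 23.0 to 25.2 CPM in the FGF1 mice of Day 5. It ran from 26.4 through 29.3 to 36.0 CPM in the non-diabetic and from 26.5 through 36.6 to 47.1 CPM in the diabetic vehicle mice. All 9 FGF1 mice lay below all 14 vehicle mice, and a lack of overlap held for 3.93% and 6.08% of all genes in the 2 comparisons, with 1.55% and 2.45% below. Cry1 fell by 24.3% against the non-diabetic group (log2 fold change -0.40 ± 0.09, edgeR adjusted p = 0.00310) and by 36.2% against the diabetic group (-0.65 ± 0.09, edgeR adjusted p = 9.53e-07). The exact permutation p was 0.000175 in both comparisons, the smallest that 9 against 7 mice can give. No single mouse left out changed either call.

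Per1, the PERIOD gene that responds fastest to light and hormones, ran from 22.5 through 24.9 to 31.1 CPM in the FGF1 mice. It ran from 29.6 through 34.7 to 38.7 CPM in the non-diabetic and from 28.9 through 40.4 to 50.1 CPM in the diabetic vehicle mice. The groups overlapped, with 7 of 9 FGF1 mice below every vehicle mouse of either group. Against the diabetic group Per1 fell by 36.5% (log2 fold change -0.66 ± 0.17, edgeR adjusted p = 0.00750). Against the non-diabetic group the log2 fold change was -0.44 ± 0.17 and the adjusted p was 0.144, although the exact permutation p over those 16 mice was 0.000524 in each comparison. The spread in the fit is shared with Days 1 and 42, where Per1 varied more: its SD of log2 CPM was 0.13 in the non-diabetic vehicle mice of Day 5 and 0.45 and 0.63 in the vehicle mice of Days 1 and 42.

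Cry2 ran from 61.8 through 70.9 to 77.7 CPM in the FGF1 mice, from 76.2 through 82.2 to 87.1 CPM in the non-diabetic and from 78.5 through 87.6 to 99.7 CPM in the diabetic vehicle mice. No FGF1 mouse reached the diabetic group, and 8 of 9 lay below the non-diabetic group. Cry2 fell by 19.7% against the diabetic group (log2 fold change -0.32 ± 0.07, edgeR adjusted p = 0.00214). Against the non-diabetic group its log2 fold change was -0.22 ± 0.07 with an adjusted p of 0.0666 and an exact permutation p of 0.000350.

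The remaining clock genes did not pass on Day 5. Arntl ran from 27.8 to 39.96 CPM in FGF1 mice and from 32.0 to 40.3 CPM in diabetic vehicle mice, with a log2 fold change of -0.20 ± 0.07 (edgeR adjusted p = 0.0673), while against the non-diabetic group it was 0.00 ± 0.07. Per3, the gene with the largest fall on Day 1, had log2 fold changes of -0.08 ± 0.07 and -0.06 ± 0.07. Dbp had -0.11 ± 0.12 and 0.04 ± 0.12, and Per2 -0.11 ± 0.11 and -0.15 ± 0.11. Clock lay above the median of each vehicle group in all 9 FGF1 mice, but by only 0.06 on the log2 scale (SE 0.09) in each comparison. Nr1d1 and Nr1d2 had log2 fold changes between 0.02 and 0.19.

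With the 23 libraries of Day 5 alone, whose spread is smaller, 4 of 10 clock genes were called against the non-diabetic group, beside 20.9% of all genes, and 6 of 10 against the diabetic group, beside 30.8%. Per1 and Cry2 then passed against the non-diabetic group as well, with adjusted p-values of 0.000650 and 0.00173 at log2 fold changes of -0.44 and -0.21. Clock passed in both comparisons, at 0.07, and Arntl (-0.18) and Nr1d2 (0.08) against the diabetic group. When both vehicle groups were merged, Per1, Cry1 and Cry2 were called, beside 12.0% of all genes. With the libraries of all days, Arntl was called against the diabetic group without the ninth FGF1 mouse (log2 fold change -0.25) or without the seventh diabetic vehicle mouse (-0.22). It was also called with limma-voom quality weights (-0.21) and with the score of the leading axis of differences between mice as a covariate (-0.20). Without the eighth and ninth FGF1 mice, sequenced most deeply on Day 5, Arntl was at -0.26 (edgeR adjusted p = 0.0148). Against the diabetic group limma-voom also called Per2 (-0.17, adjusted p = 0.0457).

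Of the surrounding genes on Day 5, none of 12 loop genes and none of 19 modifiers was called in either comparison at an adjusted p under 0.05 (edgeR), beside 4.65% and 9.21% of all genes. Tef fell in both, with log2 fold changes of -0.19 ± 0.05 and -0.19 ± 0.05, and Leo1 against the diabetic group (-0.17 ± 0.05). The cold-inducible genes Cirbp and Rbm3, whose products bind RNA and can act on clock transcripts, fell in both comparisons: Cirbp by 0.66 and 0.83 and Rbm3 by 0.84 and 0.87 on the log2 scale, with SE from 0.10 to 0.11. Hsph1, a heat shock gene, rose by 0.28 ± 0.08 and 0.36 ± 0.08. Among 13 glucocorticoid targets, Tsc22d3 fell in both (-0.45 ± 0.11 and -0.41 ± 0.11), and Sgk1 (-0.76 ± 0.23) and Plin4 (-0.91 ± 0.23) fell against the diabetic group. None of 10 immediate early genes and none of 13 suprachiasmatic genes was called. The summed level of 3 oligodendrocyte markers was 3973 to 4738 CPM in FGF1, 2887 to 3869 CPM in non-diabetic and 2675 to 4073 CPM in diabetic vehicle mice, and that of 3 neuron markers 1172 to 1542, 1480 to 1644 and 1404 to 1858 CPM. For 4 astrocyte markers it was 3347 to 3860, 3080 to 3367 and 2998 to 3337 CPM, and for 3 microglial markers 165 to 208, 121 to 220 and 113 to 129 CPM, so FGF1 and diabetic vehicle mice did not overlap in either. Whether these shifts bear on Cry1, Per1 and Cry2 was not tested.

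The vehicle groups of Day 5 were compared directly to see whether clock genes differed with the diabetic label. No clock gene and no gene of the table was called (0%, edgeR adjusted p under 0.05), while 1.36% of all genes had an unadjusted p under 0.05. Arntl and Cry1 were among the latter. Arntl ran from 32.0 to 40.3 CPM in diabetic and from 29.0 to 33.8 CPM in non-diabetic vehicle mice (log2 fold change 0.20 ± 0.07), and 5 of 7 diabetic mice lay above every non-diabetic mouse. Cry1 differed by 0.25 ± 0.09, with 4 of 7 above. Both had an edgeR adjusted p of 1.00. The exact permutation p was 0.00583 for Arntl, 0.0880 for Cry1 and 0.0455 for Dbp, where the log2 fold change was -0.14 ± 0.12, and it was above 0.05 for the other clock genes.

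On Day 42 no clock gene was called, and no gene of the table was (0%, edgeR adjusted p under 0.05), although 5.46% of all genes had an unadjusted p under 0.05. DESeq2 also called none. Without the first FGF1 mouse of Day 42, 31 genes of the table were called, and 1 without the second, none of them a clock gene. Cry1 was at 28.4, 29.8, 25.3, 27.2 and 24.4 CPM in the FGF1 mice and at 33.3, 33.0, 28.7, 30.7 and 38.6 CPM in the vehicle mice. The groups overlapped, with 4 of 5 FGF1 mice below every vehicle mouse, and 0.267% of all genes did not overlap. Its log2 fold change was -0.28 ± 0.11, with an edgeR adjusted p of 0.597, an unadjusted p of 0.0105 and an exact permutation p of 0.0159, where 0.00794 is the smallest that 5 against 5 mice can give.

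Per3 on Day 42 was at 88.2, 77.3, 92.3, 86.7 and 73.9 CPM in FGF1 and at 93.7, 72.6, 93.3, 84.3 and 103 CPM in vehicle mice. Cry2 was at 120, 137, 130, 128 and 149 CPM in FGF1 and at 112, 128, 108, 128 and 173 CPM in vehicle mice. The groups overlapped for both genes, with log2 fold changes of -0.10 ± 0.09 and 0.03 ± 0.09, and the fifth vehicle mouse was the highest for each. For the other 7 clock genes the log2 fold changes lay between -0.13 and 0.09. Of the surrounding lists, none of the genes was called. The fifth vehicle mouse stood apart for several clock genes, with 85.3 CPM of Clock beside 150 to 185 CPM, and 109 CPM of Per1 beside 37.0 to 55.7 CPM, in the other 4. Without it the log2 fold change of Per1 was 0.29 in place of -0.06, that of Nr1d1 0.27 in place of 0.06 and that of Clock -0.15 in place of 0.00, and still no clock gene was called.

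The change of the FGF1 effect from day to day was tested directly as a difference of differences, with non-diabetic vehicle mice as the control on each day. From Day 1 to Day 5 it was called for 3 of 10 clock genes, beside 26.6% of all genes, and from Day 1 to Day 42 for 2 of 10, beside 25.5%. The fall of Per3 was smaller on Day 5 than on Day 1 by 0.69 ± 0.11 on the log2 scale (edgeR adjusted p = 3.34e-06), and on Day 42 by 0.67 ± 0.12 (adjusted p = 3.29e-05). For Cry2 the differences were 0.50 ± 0.11 and 0.75 ± 0.12 (edgeR adjusted p = 0.000409 and 3.34e-06). Nr1d2 passed from Day 1 to Day 5 at 0.36 ± 0.14 (edgeR adjusted p = 0.0472), a call that 22 of 30 single mice ended when left out. Leaving out the 2 FGF1 mice sequenced most deeply on Day 5 also ended it (0.36, edgeR adjusted p = 0.0618). For Cry1, which fell on Days 1 and 5, the difference was -0.17 ± 0.13 (edgeR adjusted p = 0.379), with a fold change of the same sign on each day. From Day 5 to Day 42 none was called, beside 0.942% of all genes; 9.98% had an unadjusted p under 0.05, and of the clock genes Cry2 (0.25 ± 0.11) was among them. Without the fifth vehicle mouse of Day 42, Cry2 was called there at 0.38. These 3 contrasts share mice and days.

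Within a group, mice differed from each other in their clock genes, and the 45 pairs were compared over 47 mice as deviations from the group mean. In 14 of 45 pairs the correlation passed after adjustment (permutation of mice within groups, Benjamini-Hochberg over the 45 pairs). Clock and Nr1d2 had Pearson r = 0.85 (permutation p = 2e-05, adjusted p = 0.0003) and Spearman rho = 0.60 (p = 0.00021, adjusted p = 0.00165). For this pair r was 0.79 without the 2 mice farthest from the median of Clock. In each pair the 2 farthest mice were set by the first gene named, and not by the other. Nr1d1 and Nr1d2, which act on the same elements, were opposed, with r = -0.67 (permutation p = 0.0001, adjusted p = 0.00075) and rho = -0.62 (p = 0.00022, adjusted p = 0.00165), and r was -0.54 without the 2 farthest mice. Cry2 and Nr1d1 rose and fell together, with r = 0.77 (permutation p = 1e-05, adjusted p = 0.000225), rho = 0.72 (p = 1e-05, adjusted p = 0.00045) and r = 0.68 without the 2 farthest mice; here 1e-05 is the smallest p that 100000 permutations give. Arntl and Dbp, which peak at different hours in a running clock, were not among the 14 pairs (r = -0.26, rho = -0.20, permutation p = 0.0722 and 0.210, adjusted p = 0.159 and 0.377; r = -0.14 without the 2 farthest mice).

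Within days, r of Clock and Nr1d2 was 0.85 in the 14 mice of Day 1 and 0.89 in the 10 mice of Day 42, but 0.16 in the 23 mice of Day 5. For Nr1d1 and Nr1d2 it was -0.77, -0.82 and 0.07 on the same days. For Cry2 and Nr1d1 it was 0.68, 0.94 and 0.71, and this was the 1 pair of 45 that passed in the mice of Day 5 alone.

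The same differences between mice ran through most other genes. The leading axis of deviations from the group mean, computed without the clock genes over 14113 genes, held 26.5% of within-group variance, and 55.7% of it lay in the mice of Day 1, 43.1% in those of Day 42 and 1.20% in those of Day 5. Across genes, the weight on this axis followed the GC content of the transcript (Spearman rho = 0.85 over 14072 genes, which are not independent replicates). Clock and Nr1d2, the clock genes with the lowest GC content (40.9% and 41.8%), had r of -0.92 and -0.91 with the axis. Nr1d1 (56.8% GC), Per1 (59.4%), Cry2 (55.6%) and Dbp (61.6%) had r of 0.75, 0.72, 0.69 and 0.65, and Per3 (52.4%) and Cry1 (51.6%) had -0.01 and 0.03. An r at least as far from 0 as that of Clock was seen in 2.31% of genes, and as that of Nr1d1 in 24.0%. Mean axis scores were 1.01 ± 1.04 (SD) in the FGF1 and 0.25 ± 1.33 in the vehicle mice of Day 1.

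With the axis score as a covariate, an alternative added after the data were seen, 7 of 10 clock genes were called on Day 1, beside 53.7% of all genes. Per3 and Cry2 had log2 fold changes of -0.78 and -0.81, and Dbp of -0.60. Nr1d2 was called at -0.17 in place of -0.34, and Nr1d1, not called, had -0.14 in place of 0.10. Per1 then passed at -0.56 (edgeR adjusted p = 0.000193) and Clock at 0.26 (adjusted p = 1.89e-05). The part of this axis in the correlated pairs was not tested.

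**Figure D4:**
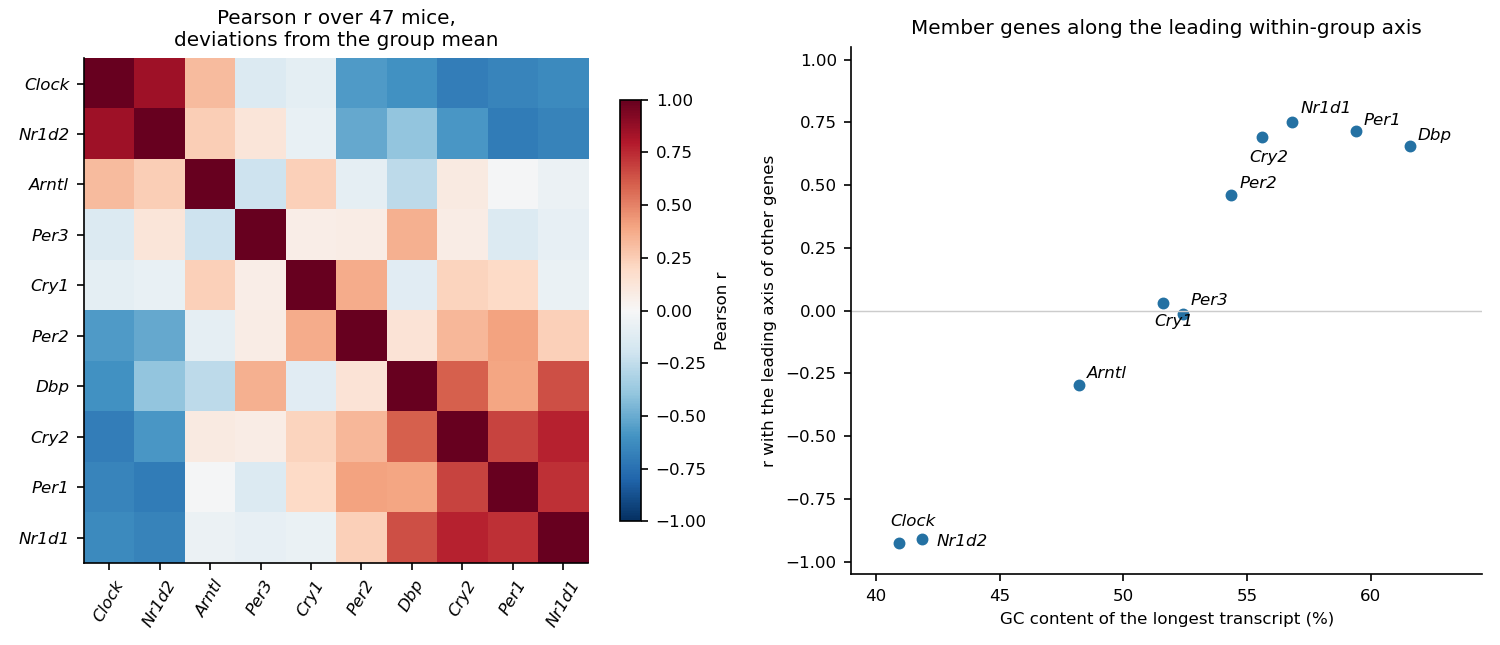
Left, Pearson r of each pair of clock genes over 47 mice, from deviations of log2(CPM + 0.5) from the group mean; right, r of each clock gene with the leading axis of all other genes (vertical axis) against the GC content of its longest transcript in percent (horizontal axis). Clock and Nr1d2 sit at r near -0.9 with GC of 40.9% and 41.8%, and Nr1d1, Per1, Cry2 and Dbp sit above 0.6 with GC of 55.6% to 61.6%.

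Genes whose deviations were most like those of Arntl and Dbp over the 47 mice were read by Pearson r, as a description. For Arntl they were Fam217b (r = 0.62), Gars, Kcmf1, Ppp2cb and Rgs7 (r = 0.60). For Dbp they were Rgma (r = 0.83), Srebf1, Mid1ip1, Arhgef19 and Gna12 (r = 0.81). The clock genes were left out of this search, so none could appear. The log2 ratio of Dbp to Arntl, which in a running clock depends on the hour, had means of 0.03 ± 0.19 (SD) in the vehicle and -0.30 ± 0.39 in the FGF1 mice of Day 1. On Day 5 it was 0.40 ± 0.16 in non-diabetic vehicle, 0.07 ± 0.14 in diabetic vehicle and 0.30 ± 0.28 in FGF1 mice. On Day 42 it was 0.67 ± 0.36 in vehicle and 0.57 ± 0.29 in FGF1 mice. Within each day the ranges of FGF1 and vehicle mice overlapped.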

How the data were processed

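Hypothalamic RNA of 47 mice was sequenced, and raw counts per gene were deposited by the authors, who per the labels used STAR and DESeq2. The study's methods also name a quantile normalization, while the deposited values are whole numbers with unequal totals. The program and strand setting used for counting are not given in the sources used here. The table held 14221 genes, and 0 of its columns were left without a sample. Groups came from the labels, which give 1 mouse per library. The clock genes, the gene lists and the tests were chosen with earlier results of these data known. Named genes were the 10 clock genes, up to 4 called genes with the largest change per list and comparison, and the 5 genes most like Arntl and Dbp. A result that this rule would name is not reported here.

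One edgeR 4.0.16 quasi-likelihood model (R 4.3.3, TMM scaling, filterByExpr, which removed no gene) was fitted to all 7 groups, with Benjamini-Hochberg adjustment over all genes and calls at an adjusted p under 0.05. CPM values were computed from TMM-scaled libraries, and two-sided exact permutation tests used log2(CPM + 0.5). Correlations used deviations from group means and 100000 permutations of mice within groups. Alternatives used DESeq2 1.42.0, limma 3.58.1 (voom), other filters and scalings, each day alone, merged vehicle groups and each mouse left out. The axis covariate, a fit that left out the pair of FGF1 mice sequenced most deeply on Day 5, and the correlations without the shallowest library were added after the data were seen. The edgeR step was tested on simulated data. Promoters came from RefSeq (GRCm38.p6) and gene positions from GENCODE M21.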

Additional observations from a re-analysis of the deposited data

Results flagged for a closer look

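Of 70 sets of 1 clock gene in 1 group, 5 held a mouse far from the rest of its group by Dixon's criterion, which chance meets in about 1 of 20 sets. Arntl was 39.96 CPM in the ninth FGF1 mouse of Day 5, the highest of its group. Its library held 27922117 counts, and it and the eighth were the deepest of Day 5. Clock was 85.31 CPM in the fifth vehicle mouse of Day 42, the lowest of its group. Cry2 was 87.92 CPM in the tenth FGF1 mouse of Day 1, the lowest, and Dbp was 52.67 CPM in the sixth FGF1 mouse of that day, the highest. Nr1d2 was 195.6 CPM in the fifth diabetic vehicle mouse of Day 5, the highest.

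The FGF1 effect differed between days in the test of the difference itself for 3 clock genes. From Day 1 to Day 5 the effect was higher by 0.6898 for Per3, by 0.4975 for Cry2 and by 0.3566 for Nr1d2 on the log2 scale. From Day 1 to Day 42 it was higher by 0.6741 for Per3 and by 0.7513 for Cry2.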

How the results depend on the processing

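The fold changes of Per3 and Cry2 on Day 1 and of Cry1 on Day 5 passed in every alternative that was run on the adjusted p alone. Requiring a fold change beyond 0.5 left 2 clock genes on Day 1 and 0 against the non-diabetic vehicle group of Day 5. In the change from Day 1 to Day 5 it left 1. The shares of all genes were 19.5%, 1.54% and 15.8%. With each day fitted alone the count was 2 on Day 1, beside 33.4% of all genes. Against the non-diabetic and diabetic groups of Day 5 the counts were 4 and 6, beside 20.9% and 30.8%. With limma-voom and sample quality weights they were 3 and 5 on Day 5, beside 24.1% and 33.0% of all genes. Merged vehicle groups gave 3, beside 12.0%. With the axis score as a covariate, added after the data were seen, the count was 3 against the non-diabetic group of Day 5, and 5 in the changes from Day 1 to Day 5 and from Day 1 to Day 42, beside 11.4%, 35.4% and 36.5% of all genes. DESeq2, and its size factors in edgeR, each called 2 surrounding genes in the change from Day 5 to Day 42, beside 1 in the edgeR fit.

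Leaving out 1 mouse at a time gave 3 to 5 clock genes on Day 1, 1 and 3 to 4 in the Day 5 comparisons, 0 on Day 42 and 0 between the vehicle groups, and for the changes between days 2 to 4 (Day 1 to Day 5), 0 to 1 (Day 5 to Day 42) and 2 to 4 (Day 1 to Day 42). The lowest count on Day 1 came without the second vehicle mouse, and the fifth vehicle mouse of Day 42 gave the 1 and the 4 in the last 2 changes. Of 14221 genes these fits called 5010 to 6710 on Day 1, and 459 to 662 and 982 to 1265 in the Day 5 comparisons. For the changes between days, in the order above, they called 2902 to 4184, 75 to 198 and 2888 to 3937. The number of correlated pairs was 14 over all mice, 8 in Day 1, 1 in Day 5, 9 in Day 42 mice and 9 without the 2 farthest mice. In Day 5 mice alone r turned to 0.01969 for Clock and Nr1d1 and to 0.07085 for Nr1d1 and Nr1d2. The cause of these changes was not tested. No paired analysis was possible because the replicate numbers only name mice. Depth did not limit detection of any clock gene, but the 4 vehicle mice of Day 1 limit precision there.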
